A study of Mus musculus with 6 samples.

Results

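The tubulin genes and the stathmin gene Stmn1 of a mouse leukaemia are described here: Tuba1a, Tuba1b, Tuba1c and Tuba4a (alpha tubulins), Tubb2a, Tubb4b, Tubb5 and Tubb6 (beta tubulins), Tubg1 (gamma tubulin) and Stmn1. They were chosen by gene symbol, and all 10 were found among the 54232 genes of the count table. The RNA came from leukaemic B cells sorted from the spleens of wild-type C57BL/6J mice that had been injected with cells of diseased Eµ-TCL1 mice. In that model a TCL1 transgene driven in B cells gives a CD5-positive leukaemia resembling human chronic lymphocytic leukaemia (CLL). The transgene is carried by the transplanted cells of both groups, and the recipients kept their own immune cells. The CK1i group (3 libraries) had received PF-670462, an inhibitor of the casein kinases 1 delta and epsilon, orally, 50 mg/kg dissolved in PBS with 10% kolliphor. The CTRL group (3 libraries) had received the same vehicle alone. Dosing began 5 days after the transfer, ran in cycles of 5 days with drug and 2 days without for 8 weeks in all, and stopped once CTRL mice had at least 60% CLL cells among blood leukocytes. The ages of the mice and the number of donors are not given in the labels. Each library title carries a number of its own, but nothing states that the libraries come from separate mice. The spread behind the p-values is therefore that of these samples and may be technical.

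Microtubules are hollow polymers of alpha and beta tubulin pairs, and they build the mitotic spindle and serve as tracks for vesicle transport. Gamma tubulin, in a ring complex, starts new microtubules at the centrosome, and stathmin binds free tubulin pairs and promotes shrinkage of microtubules. Mammals make several alpha and beta isotypes from separate genes, and the amount of free tubulin feeds back on the stability of tubulin mRNAs. Stmn1 is also known as a marker of dividing lymphoid cells.

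The libraries held 2472064 to 3105137 counts, with 14339 to 14836 genes detected and 7.30% to 11.4% of counts in mitochondrial genes. Levels are given as CPM (counts scaled to a common library size) after TMM scaling, which corrects for library composition. Each transcript gives a tag near its 3′ end, so counts were not divided by gene length. Levels of different genes were compared on the CPM scale on that basis. Yet the actin gene Actg1 had 7 counts in all, against 166971 for Actb, and Cd79a had 220, against 12230 for Cd79b. Whether counts follow transcript amounts from gene to gene was not tested, so the order of levels is one of counts. B-cell and CLL markers summed to 4168 to 4632 CPM in CK1i and 4258 to 4465 CPM in CTRL, with all 6 markers detected. Ms4a1 is the largest part of the sum, and 5 of the 6 had a negative log2 fold change (median -0.14), none past the adjusted threshold. For 2 of the 6, every CK1i library was below every CTRL library, which held for 4.48% of all tested genes. T-cell markers summed to 0.326 to 8.02 CPM in CK1i and 0.710 to 2.34 CPM in CTRL. Natural killer cell markers reached at most 0.652 CPM in any library, and neutrophil markers were found in 1 CK1i library only, at 3.29 CPM. Platelet and megakaryocyte markers summed to 0.658 to 1.60 CPM in CK1i and 1.00 to 2.00 CPM in CTRL. Of these 6 markers, Itga2b had 18 counts and Ppbp 2 counts in all, and Pf4, Gp9, Gp1bb and Tubb1, a platelet beta tubulin, had 0 in every library.

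Promoters are shown for 4 tubulin genes because they stand for the contrasts in the results: Tuba1b and Tubb5 varied alike over the libraries, Tuba1a did not follow Tuba1b, and Tubb4b is the member with the most CCAAT boxes. Each stretch runs from 250 bases before to 50 bases after the annotated start, from RefSeq on GRCm38.p6, and is written 5′ to 3′ on the gene's strand. Capitals mark CCAAT boxes (CCAAT or, on the other strand, ATTGG) and the CHR element TTTGAA (or TTCAAA), short motifs that are common in promoters of cell-cycle genes.
Tuba1b (chr15:98934341-98934640, minus strand): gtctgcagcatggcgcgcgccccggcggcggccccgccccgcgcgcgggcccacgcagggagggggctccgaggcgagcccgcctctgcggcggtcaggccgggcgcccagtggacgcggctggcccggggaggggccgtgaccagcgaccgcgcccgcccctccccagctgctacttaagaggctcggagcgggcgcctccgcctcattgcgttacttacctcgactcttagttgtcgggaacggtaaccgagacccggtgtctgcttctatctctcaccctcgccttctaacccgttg
Tubb5 (chr17:35838252-35838551, minus strand): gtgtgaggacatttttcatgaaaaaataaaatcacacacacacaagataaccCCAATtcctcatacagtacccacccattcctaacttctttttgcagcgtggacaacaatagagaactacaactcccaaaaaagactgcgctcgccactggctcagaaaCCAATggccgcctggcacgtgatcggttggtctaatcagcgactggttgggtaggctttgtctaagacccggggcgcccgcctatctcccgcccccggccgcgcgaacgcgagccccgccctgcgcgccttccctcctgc
Tuba1a (chr15:98953452-98953751, minus strand): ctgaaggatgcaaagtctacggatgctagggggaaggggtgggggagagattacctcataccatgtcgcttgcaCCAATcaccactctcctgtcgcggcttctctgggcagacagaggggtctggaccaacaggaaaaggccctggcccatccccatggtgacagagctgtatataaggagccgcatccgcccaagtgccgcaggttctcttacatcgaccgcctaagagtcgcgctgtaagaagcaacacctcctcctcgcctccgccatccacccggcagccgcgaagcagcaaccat
Tubb4b (chr2:25224653-25224952, minus strand): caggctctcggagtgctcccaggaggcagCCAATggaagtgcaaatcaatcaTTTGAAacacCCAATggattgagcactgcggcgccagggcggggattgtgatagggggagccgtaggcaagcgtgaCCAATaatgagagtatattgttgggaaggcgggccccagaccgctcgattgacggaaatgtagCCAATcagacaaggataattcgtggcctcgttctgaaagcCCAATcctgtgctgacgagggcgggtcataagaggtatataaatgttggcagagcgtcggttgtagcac
A promoter was matched for 7 of the 10 members, and Stmn1, Tubb6 and Tubg1 were not among them. CCAAT, searched on both strands, was present in 4 of the 7, against 37.4% of 32851 mouse promoters of the same length. Tubb4b held 5 matches, at -221, -188, -122, -59 and -19 from the start, and Tubb5 held 2, at -198 and -90. Tuba1a had a match at -176 and Tuba1c had 1 at -151. The CHR letters TTTGAA were found in Tubb4b alone, at -198, against 17.9% of all promoters. None of the E2F forms TTTCCCGC, TTTGGCGC or TTTCGCGC was found in the 7, and 1.84% of all promoters held one. The GC box GGGCGG was found in 6 of the 7, against 35.7% of all promoters. A match is only a description of the letters in the window.

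Tubb5 had the highest level of the members on the CPM scale, at 906 ± 233 CPM over the 6 libraries (SD), followed by Tuba1b at 285 ± 83.3 CPM. Tuba1a averaged 149 ± 43.0 CPM, Tuba4a 140.1 ± 18.6 CPM and Tuba1c 133 ± 32.3 CPM, and these 3 alpha tubulins were not separable in order. Tubg1 averaged 42.7 ± 7.37 CPM, Tubb4b 36.3 ± 5.58 CPM and Tubb2a 28.9 ± 7.36 CPM. Tubb6 averaged 10.3 ± 11.2 CPM and Stmn1 9.21 ± 3.97 CPM. Between neighbours in this order, the ranges over the 6 libraries were separate only for Tubb5 above Tuba1b and for Tuba1c above Tubg1.

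No member passed the adjusted threshold (adjusted p under 0.05, edgeR quasi-likelihood test with Benjamini-Hochberg adjustment over 10067 tested genes), and none of the other tested genes did either (0% called in each direction). The smallest adjusted p of any gene was 0.224, and the members' values were all at least 0.999. All 10 members passed the filter on low counts, and 5 had a higher and 5 a lower level in CK1i, against 48.8% of all tested genes higher and 51.2% lower. Unadjusted p values under 0.05 were found for 2 members, Stmn1 and Tuba1b, both higher in CK1i, against 2.70% of all genes on that side and 2.00% on the other. The median log2 fold change of the members was 0.012, and that of all tested genes was -0.0055. By DESeq2, 8 genes of the whole table passed the same threshold, and no member was among them.

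**Figure D1:**
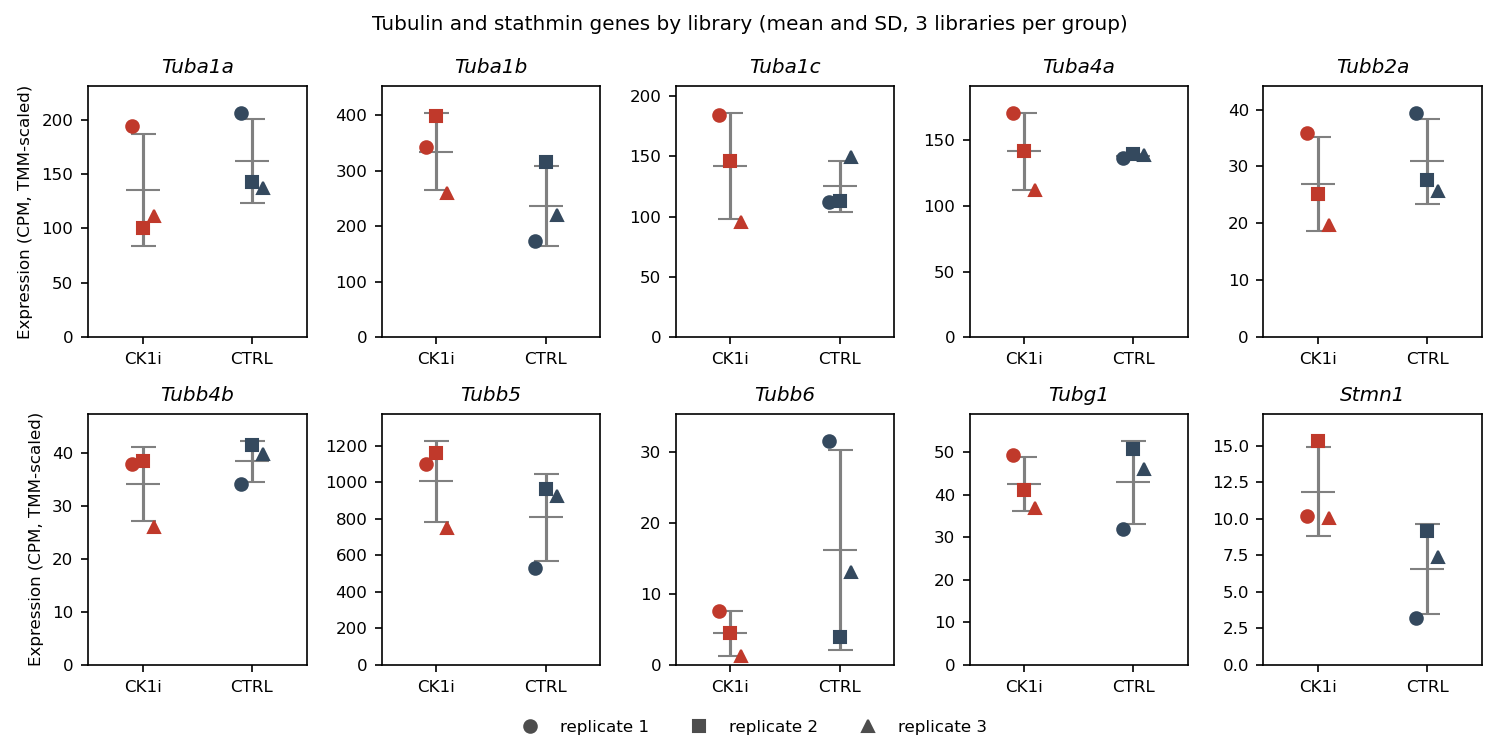
Expression in TMM-scaled CPM (vertical axes, each from 0) of the 10 genes in CK1i and CTRL; points are libraries with a symbol per replicate, and bars show the mean and SD of 3 libraries. Only Stmn1 has all CK1i libraries (10.0 to 15.3 CPM) above all CTRL libraries (3.19 to 9.18 CPM).

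Tuba1b encodes the alpha tubulin that most dividing cell types use, and lies on chromosome 15 at positions 98931425 to 98934565 of GRCm38, minus strand (ENSMUSG00000023004). It had 344, 399 and 261 CPM in the CK1i libraries, against 173, 315 and 220.0 CPM in the CTRL libraries. CK1i replicates 1 and 2 were above every CTRL library, CK1i replicate 3 was below CTRL replicate 2, and so the groups overlapped. The means were 334 ± 69.7 CPM in CK1i and 236 ± 72.2 CPM in CTRL (3 libraries each, SD). The log2 fold change was 0.50 ± 0.22 (SE), with an unadjusted p of 0.041 and an adjusted p of 0.999 by edgeR. Without CTRL replicate 1, its lowest library, the log2 fold change was 0.32.

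Tuba1a, the alpha tubulin best known from developing neurons, lies on the same chromosome at 98949837 to 98953703, minus strand (ENSMUSG00000072235). It had 194, 101 and 111 CPM in the CK1i libraries, against 206, 143 and 137 CPM in the CTRL libraries. CK1i replicate 1 and CTRL replicate 1 were the highest, and the groups overlapped. Its log2 fold change was -0.26 ± 0.26. The promoters of Tuba1a and Tuba1b shown above differ in GC content, at 59.0% for Tuba1a and 72.7% for Tuba1b.

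Tuba1c, a close copy of both at 99029891 to 99038110 on the plus strand of chromosome 15 (ENSMUSG00000043091), had 184, 146 and 95.9 CPM in CK1i and 112, 113 and 149.6 CPM in CTRL. The highest and the lowest library of this gene were both CK1i libraries. Its log2 fold change was 0.18 ± 0.21, and without CK1i replicate 1 it was -0.05. Tuba4a, an alpha tubulin gene on chromosome 1 at 75214228 to 75219865 on the minus strand (ENSMUSG00000026202), had 171, 142 and 112 CPM in CK1i and 137, 139.7 and 139 CPM in CTRL. Its CTRL libraries were nearly equal, with an SD of 1.58 CPM, and the CK1i libraries lay on both sides of them. The log2 fold change of Tuba4a was 0.036 ± 0.16, and it was -0.12 without CK1i replicate 1. Tuba4a overlaps Stk16 on the other strand, which had 430 counts in all, against 2386 for Tuba4a.

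Reads of the near-identical alpha tubulins may have been assigned to another copy or discarded, which would bear on their levels, their order and their shares, and was not tested. Of the 75-base windows in the last 500 bases of their transcripts, 53.8% for Tuba1a, 61.5% for Tuba1b and 66.2% for Tuba1c also occurred in transcripts of another gene, and none did for Tuba4a. When the counts of Tuba1a, Tuba1b and Tuba1c were summed to 1 feature, the log2 fold change was 0.23 ± 0.17. Tuba1b had the most counts in this sum (4854, against 2525 for Tuba1a and 2293 for Tuba1c). Tuba1b and Tuba1c both had positive log2 fold changes, so the sum cannot show how shared reads bear on Tuba1a.

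Tubb5, the main beta tubulin of lymphoid and other dividing cells, lies on chromosome 17 at 35833921 to 35838306, minus strand (ENSMUSG00000001525). It had 1102, 1162 and 749.6 CPM in the CK1i libraries, against 532, 965 and 925 CPM in the CTRL libraries. CK1i replicates 1 and 2 were the 2 highest, CTRL replicate 1 was the lowest, and CK1i replicate 3 was below CTRL replicates 2 and 3. The means were 1004 ± 223 CPM in CK1i and 807 ± 239 CPM in CTRL (3 libraries each, SD), with a log2 fold change of 0.32 ± 0.23. Without CTRL replicate 1 the log2 fold change was 0.086. No 75-base window in the last 500 bases of Tubb5 transcripts was shared with another gene.

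Tubb4b, a broadly made beta tubulin also used in cilia, lies on chromosome 2 at 25222160 to 25224702, minus strand (ENSMUSG00000036752). Tubb4b had 37.8, 38.5 and 26.1 CPM in CK1i and 34.1, 41.5 and 39.7 CPM in CTRL. The groups overlapped, and the log2 fold change was -0.17 ± 0.19, or -0.017 without CK1i replicate 3. Tubb2a, a beta tubulin abundant in neurons, lies on chromosome 13 at 34074274 to 34078007, minus strand (ENSMUSG00000058672). It had 35.9, 25.1 and 19.7 CPM in CK1i and 39.4, 27.5 and 25.7 CPM in CTRL, a log2 fold change of -0.19 ± 0.24. As for Tuba1a, replicate 1 was the highest library of Tubb2a within each group, but replicate numbers pair nothing between the groups. Windows shared with other genes made up 33.1% of the transcript ends of Tubb2a, nearly all with Tubb2b, and 19.7% of those of Tubb4b, with pseudogenes. With the counts of Tubb2a, Tubb2b, Tubb4b and Tubb5 summed to 1 feature, most of it Tubb5, the log2 fold change was 0.27 ± 0.22.

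Tubb6, a beta tubulin gene on chromosome 18 at 67390717 to 67402749, plus strand (ENSMUSG00000001473), varied most among the members. It had 7.57, 4.57 and 1.20 CPM in CK1i (23, 14 and 3 counts), against 31.6, 3.99 and 13.0 CPM in CTRL (89, 10 and 39 counts). CTRL replicates 1 and 3 were above every CK1i library, while CTRL replicate 2 was below CK1i replicates 1 and 2. The highest library had 26.3 times the level of the lowest. The log2 fold change was -1.82 ± 0.86, and it was -0.92 without CTRL replicate 1.

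Tubg1, which encodes gamma tubulin, lies on chromosome 11 at 101119938 to 101126419, plus strand (ENSMUSG00000035198). It had 49.4, 41.1 and 36.9 CPM in CK1i and 31.9, 50.7 and 46.1 CPM in CTRL. The CTRL libraries enclosed the CK1i libraries, and the log2 fold change was -0.011 ± 0.20.

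Stmn1, on chromosome 4 at 134468320 to 134473843, plus strand (ENSMUSG00000028832), had 10.2, 15.3 and 10.0 CPM in the CK1i libraries (31, 47 and 25 counts). It had 3.19, 9.18 and 7.34 CPM in the CTRL libraries (9, 23 and 22 counts). Every CK1i library was above every CTRL library, which held for 5.22% of all tested genes and for none of the other 9 members. No member had every CK1i library below every CTRL library, which held for 4.48% of all genes. The gap was small, between 10.0 CPM in CK1i replicate 3 and 9.18 CPM in CTRL replicate 2. The 95% counting intervals of these libraries overlapped, at 6.49 to 14.8 CPM in CK1i replicate 3 and 5.82 to 13.8 CPM in CTRL replicate 2. The means were 11.9 ± 3.01 CPM in CK1i and 6.57 ± 3.07 CPM in CTRL (3 libraries each, SD), with a log2 fold change of 0.86 ± 0.35. Its unadjusted p was 0.027 and its adjusted p 0.999 by edgeR. Without CTRL replicate 1 the log2 fold change was 0.53. Windows shared with another gene made up 28.3% of the Stmn1 transcript ends, all with Gm11223, which had 1 count in all. For Stmn1, as for every gene here, fewer cells with the transcript and less transcript per cell cannot be told apart in sorted bulk RNA.

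**Figure D2:**
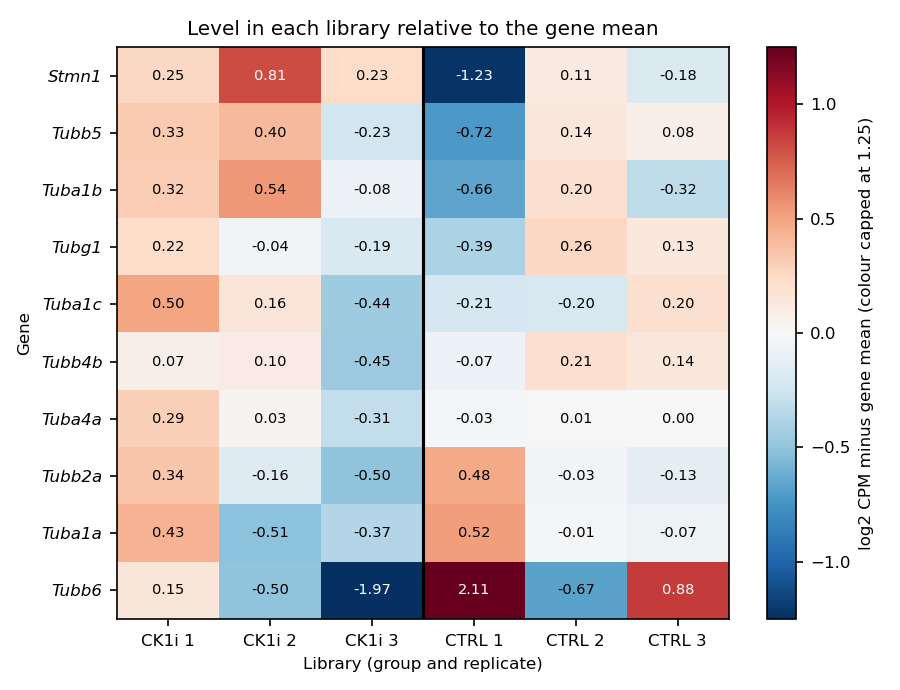
Heat map of log2 CPM minus the gene's mean over the 6 libraries (colour and printed value), with genes down and libraries across, CK1i left of CTRL. CTRL 1 is the lowest library of Stmn1 (-1.23), Tubb5 (-0.72), Tuba1b (-0.66) and Tubg1 (-0.39), and the highest of Tubb6 (2.11), Tuba1a (0.52) and Tubb2a (0.48).

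The members did not vary as a block. CTRL replicate 1 was the lowest library for 4 members and the highest for 3, and CK1i replicate 3 was the lowest for 5. Besides Tubb6, Stmn1 had the widest range, its highest library at 4.80 times the lowest, and the other 8 members had ratios of 1.52 to 2.30. Likeness of pattern was measured as the root mean square difference of centred log2 CPM over the 6 libraries. It was ranked among 6536 tested genes with at least 20 CPM on average, with predicted gene models (Gm, Rik) and immunoglobulin segments left out. Stmn1 and Tubb6 averaged less than that and so have no rank. Nearest to Stmn1 were Cdca3 (0.068), Tcf19 (0.072), Espl1 (0.085), Spag5 (0.094) and Ccna2 (0.098). Nearest to Tubb5 were E2f1 (0.081), Abi3 (0.095), Pdcd4 (0.098), Haus4 (0.10) and Mcm5 (0.11). Nearest to Tuba1b were Fignl1 (0.0999), Knstrn (0.10), Nrm (0.12), Pole (0.13) and Arhgap11a (0.14). Tubb5 was rank 30 of 6536 from Tuba1b, while Tuba1a was rank 6361. From Stmn1, Tuba1b was rank 75, Tubb5 rank 106 and Tuba1a rank 6419. These are descriptions over 6 libraries, and genes that share a low CTRL replicate 1 come out as alike.

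Because the isotypes of a family are set against each other within a library, their shares do not depend on library scaling. All alpha shares, that of Tuba4a included, do depend on how reads shared by Tuba1a, Tuba1b and Tuba1c were counted. Beta shares depend in the same way on reads of Tubb2a and Tubb4b that other genes share. Tuba1b made up 38.5%, 50.7% and 45.0% of alpha tubulin counts in CK1i, against 27.6%, 44.3% and 34.1% in CTRL. Tuba1a made up 21.8%, 12.8% and 19.2% in CK1i, against 32.8%, 20.1% and 21.3% in CTRL. Both overlapped between the groups, at means of 44.7% ± 6.09 in CK1i and 35.3% ± 8.45 in CTRL for Tuba1b (3 libraries each, SD). The ratio of Tuba1b to Tuba1a counts was 1.77, 3.96 and 2.35 in CK1i and 0.840, 2.21 and 1.60 in CTRL.

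Tuba4a had the smallest SDs of share among the 4 alpha tubulins, 19.1%, 18.0% and 19.4% in CK1i against 21.8%, 19.7% and 21.5% in CTRL. Every CK1i library was below every CTRL library, the closest at 19.4% in CK1i and 19.7% in CTRL. The CPM of Tuba4a itself overlapped between the groups (log2 fold change 0.036), and its share also moves with the counts of the other 3 alpha tubulins. Among beta tubulins, Tubb5 made up 91.8%, 93.8% and 93.4% in CK1i, against 80.4%, 92.1% and 91.0% in CTRL, and CTRL replicate 1 stood apart. Tubb4b made up 3.15%, 3.11% and 3.25% in CK1i, all below its 5.14%, 3.96% and 3.91% in CTRL, while its CPM overlapped between the groups. Tubb6 made up at most 0.630% in CK1i, and 4.77%, 0.381% and 1.28% in CTRL. No test was made on shares. An exact test of 3 libraries against 3 cannot give a two-sided p below 0.10.

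**Figure D3:**
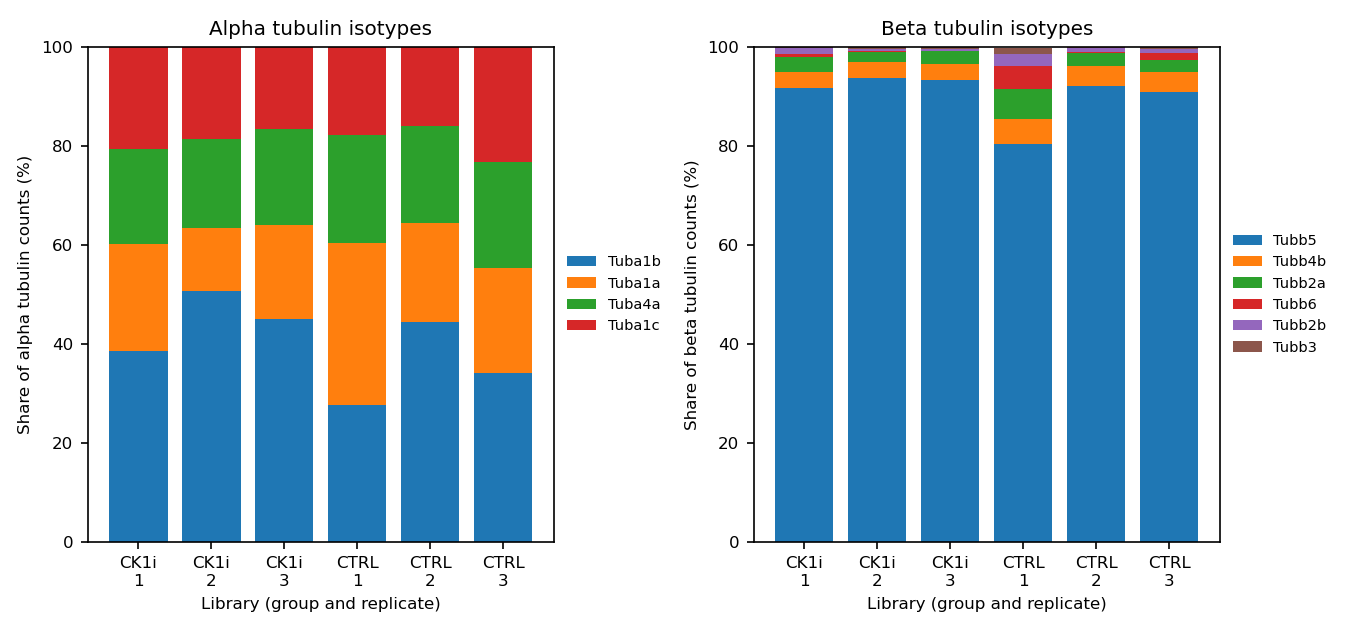
Stacked bars of the share (%) of alpha tubulin counts (left panel) and beta tubulin counts (right panel) taken by each gene, with 1 bar per library, CK1i left of CTRL. Tuba1b takes 38.5% to 50.7% of alpha counts in CK1i and 27.6% to 44.3% in CTRL, and Tubb5 takes 80.4% of beta counts in CTRL 1 and 91.0% to 93.8% in the others.

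The summed alpha tubulin genes reached 892, 788 and 579.9 CPM in CK1i and 628, 711 and 646 CPM in CTRL. The summed beta tubulin genes reached 1200.3, 1239 and 802 CPM in CK1i and 662, 1047 and 1017 CPM in CTRL. Both sums were lowest in CK1i replicate 3 within CK1i and in CTRL replicate 1 within CTRL, and both overlapped between the groups.

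Of the 11 other tubulin genes examined, Tuba3a, Tuba3b, Tuba8, Tubal3 and Tubb1 had 0 counts, which allows a level of up to 0.176 CPM over the 6 libraries together (3 counts, counting error only). Tubb2b, a neuronal beta tubulin, had 14.5, 3.91 and 3.21 CPM in CK1i and 14.9, 7.19 and 9.35 CPM in CTRL. Replicate 1 was its highest library in both groups, as for Tubb2a and Tuba1a, though replicate numbers pair nothing between the groups. Tubb3, the beta tubulin used as a neuron marker, had 2.96, 4.89 and 2.81 CPM in CK1i and 9.23, 2.40 and 4.01 CPM in CTRL. The log2 fold changes were -0.52 ± 0.53 for Tubb2b, -0.55 ± 0.49 for Tubb3, -0.65 ± 0.37 for Tubg2, the second gamma tubulin, and 0.15 ± 0.37 for Tube1, epsilon tubulin. None passed the threshold. Tubd1, delta tubulin, had 59 counts and Tubb4a 2 counts in all, and neither was tested. The neuronal stathmins Stmn2 and Stmn3 had 0 counts, and Stmn4 had 1.

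**Figure D4:**
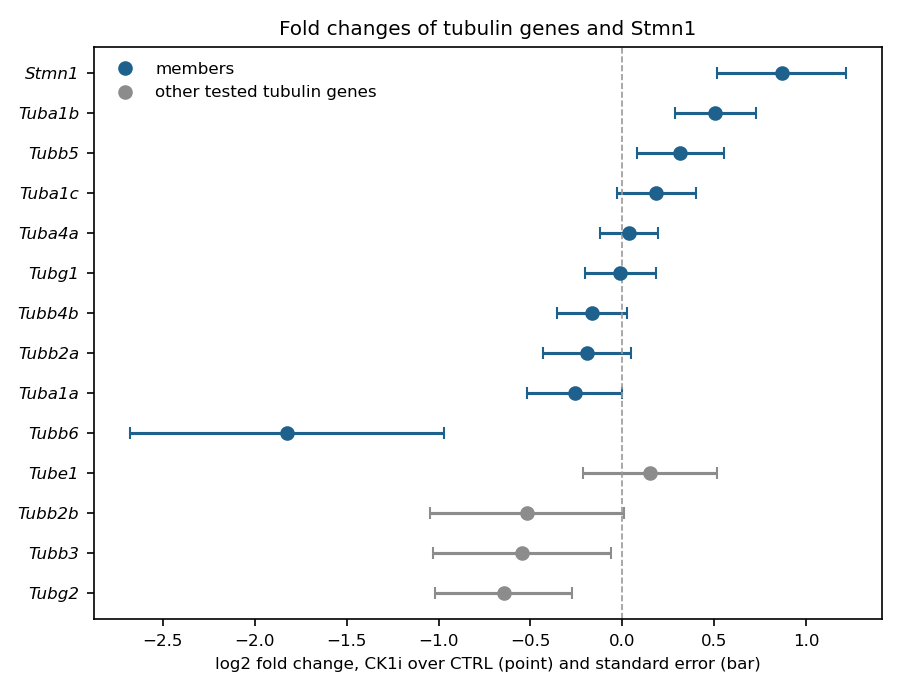
Log2 fold change of CK1i over CTRL (points) with its standard error (bars) for the 10 members (blue) and the 4 other tested tubulin genes (grey). Values run from -1.82 for Tubb6 to 0.86 for Stmn1.

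The genes that make, fold and modify tubulin gave no call past the threshold. In the gamma tubulin ring complex, the nucleator of microtubules, 7 of 9 tested genes were higher in CK1i, with a median log2 fold change of 0.14 (-0.0055 without CK1i replicate 2). Cdk5rap2, which tethers the complex to the centrosome, had 17.4, 17.9 and 19.7 CPM in CK1i and 14.2, 13.2 and 14.7 CPM in CTRL. Nedd1, which recruits it to the spindle, had 34.5, 39.1 and 45.7 CPM in CK1i and 34.1, 29.5 and 33.7 CPM in CTRL, and Tubgcp2, a core subunit, had 26.0, 26.1 and 31.3 CPM in CK1i and 22.0, 24.0 and 23.7 CPM in CTRL. All CK1i libraries were above all CTRL libraries for these 3 of the 9 genes, against 5.22% of all tested genes. Their log2 fold changes were 0.38 ± 0.21, 0.29 ± 0.17 and 0.26 ± 0.18. Of the 8 subunits of the CCT chaperonin, which folds tubulin and actin, 6 were higher, with a median of 0.063. Its subunit Tcp1 had 267, 248 and 245 CPM in CK1i and 212, 216 and 212 CPM in CTRL, a log2 fold change of 0.25 ± 0.13.

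Prefoldin, which hands nascent tubulin to CCT, had 4 of 6 genes higher and a median of 0.060, and Pfdn2 was at -0.35 ± 0.21. Of the 7 tubulin cofactor genes, which assemble the alpha and beta pair, 6 were lower, with a median of -0.083 (-0.20 without CTRL replicate 1 and -0.015 without CK1i replicate 3). Ttc5, Scaper and Cnot11, which destabilize tubulin mRNAs when free tubulin is high, had log2 fold changes of 0.015 ± 0.32, 0.22 ± 0.17 and -0.13 ± 0.18. Of 12 tested genes linked to modification of tubulin tails and lysines, 7 were higher and 5 lower, with a median of 0.050. With 1 library left out that median ran from 0.0085 to 0.18, the highest without CTRL replicate 2 and the lowest without CTRL replicate 1. Vash1 of the same list had 0 counts. Of 13 microtubule stabilizing and plus-end genes, 8 were higher, with a median of 0.039, and Map7d1 was at -0.43 ± 0.20.

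Of the 6 tested severing and depolymerizing genes, 3 were higher and 3 lower. Kif2c, a kinesin that removes tubulin from microtubule ends at mitosis, had 17.4, 23.8 and 18.4 CPM in CK1i and 4.61, 11.2 and 10.0 CPM in CTRL. All CK1i libraries were above all CTRL libraries, with a log2 fold change of 1.21 ± 0.30, an unadjusted p of 0.0010 and an adjusted p of 0.493 by edgeR. Fignl1, a relative of the severing enzyme fidgetin, was at 0.44 ± 0.22.

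**Figure D5:**
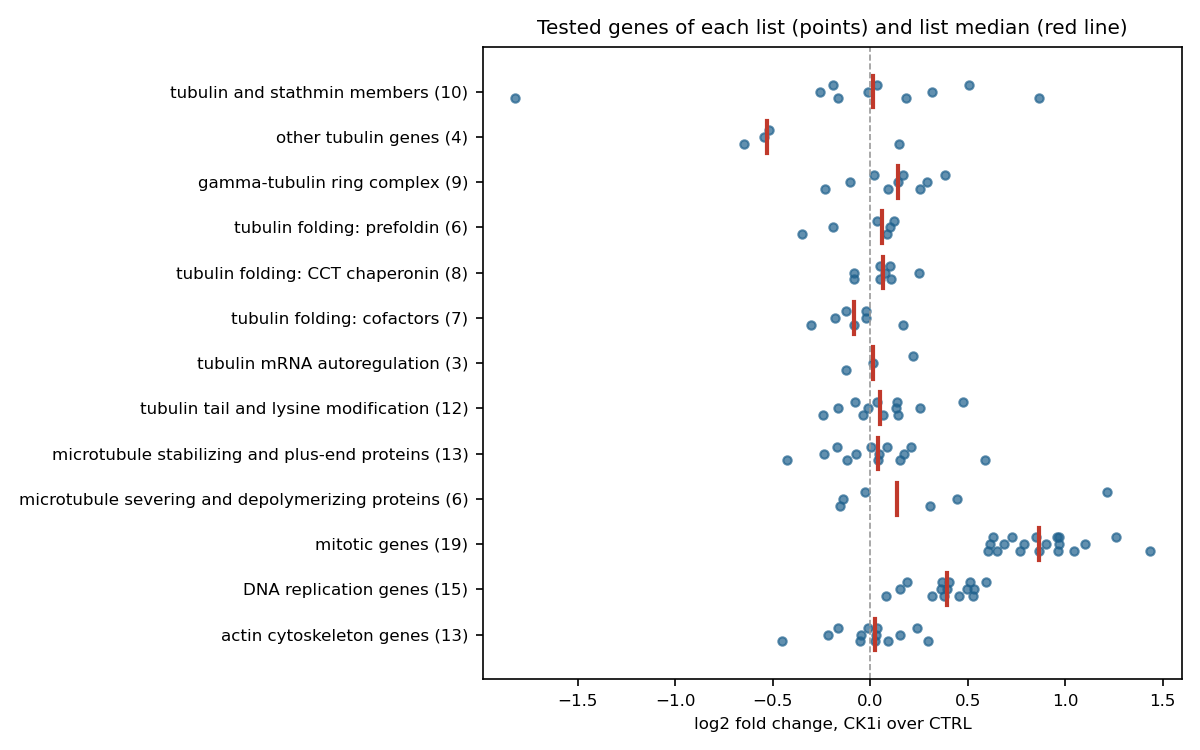
Log2 fold change of CK1i over CTRL for each tested gene (points) and the list median (red line), with the number of tested genes in brackets. The medians are 0.012 for the tubulin and stathmin genes, 0.87 for mitotic genes and 0.39 for DNA replication genes.

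Stmn1, Tuba1b and Tubb5 were set beside genes of the dividing cell. All 19 tested mitotic genes were higher in CK1i, with a median log2 fold change of 0.87, and 18 of them had an unadjusted p under 0.05, against 2.70% of all genes. The list was drawn up with earlier results of these data known, so its direction is not independent evidence, and none of its genes passed the threshold (smallest adjusted p 0.393 by edgeR, for Kif20a). Kif20a, a kinesin of late mitosis, had 60.5, 80.9 and 65.8 CPM in CK1i and 31.2, 43.5 and 39.1 CPM in CTRL, with a log2 fold change of 0.87 ± 0.18. Ube2c, a mitotic ubiquitin-conjugating enzyme, had 37.5, 69.8 and 44.1 CPM in CK1i and 12.1, 25.1 and 19.0 CPM in CTRL, with a log2 fold change of 1.44 ± 0.29. The mean log2 CPM of the mitotic list was 5.99, 6.57 and 6.08 in CK1i and 4.82, 5.68 and 5.47 in CTRL. CK1i replicate 2 was its highest library and CTRL replicate 1 its lowest, as for Stmn1, Tubb5, Tuba1b and the mean of the DNA replication genes. The libraries in between differed for Tubb5 and Tuba1b. Every CK1i value of the mitotic list was above every CTRL value, while CK1i replicate 3 was below CTRL replicate 2 for both of these genes.

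All 15 DNA replication genes were higher as well, against 48.8% of all tested genes, with a median of 0.39 (0.19 without CTRL replicate 1). An unadjusted p under 0.05 by edgeR was found for 3 of them (Mcm4, Mcm6 and Rrm1), against 2.70% of all genes on that side. This list too was drawn up with earlier results of these data known, so its direction is not independent evidence. The mean log2 CPM of the list was 6.95, 7.20 and 6.84 in CK1i and 6.04, 6.95 and 6.74 in CTRL, so that the groups overlapped as for Tuba1b and Tubb5. The actin cytoskeleton served as a second polymer system, and 7 of 13 tested genes were higher, with a median of 0.026. The part of cell division in the Stmn1, Tuba1b and Tubb5 values was not tested.

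Macrophage markers summed to 33.9 to 39.5 CPM in CK1i and 23.8 to 27.5 CPM in CTRL. Most of it was Cd68, at 34.9, 31.0 and 32.5 CPM in CK1i and 20.9, 25.1 and 23.7 CPM in CTRL. Every CK1i library was above every CTRL library, which held for 5.22% of all tested genes. Cd68 was the only marker of the list that was tested. Its log2 fold change was 0.50, with an unadjusted p under 0.05 and an adjusted p of 0.929 by edgeR. The other 5 had 1 to 29 counts in all, with Csf1r at 6, C1qa at 2 and C1qb at 1. Plasma cell markers, of which 4 of 4 were detected and Jchain made up most, summed to 346 to 1092 CPM in CK1i and 740.2 to 1451 CPM in CTRL. CK1i replicate 2, the highest library of Stmn1, Tuba1b and Tubb5, had the lowest plasma cell sum. Erythroid markers summed to 3.21 to 5.59 CPM in CK1i and 3.90 to 5.68 CPM in CTRL, and stromal and endothelial markers to 163 to 177 CPM in CK1i and 176 to 191 CPM in CTRL. The stromal and endothelial sum was nearly all Pecam1 (2895 counts), with 61 counts for Col1a1, 46 for Cdh5 and 0 for Col3a1 and Kdr. Their part in the tubulin and Stmn1 values was not tested.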

How the data were processed

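The labels' protocols describe 3′ end libraries (QuantSeq forward kit with unique molecular identifiers, UMIs), read as single 75-base reads. All 6 libraries have 1 batch label. The authors deposited a table of raw counts per gene. The submitters' processing notes name STAR 2.7.3a, featureCounts 1.6.3, UMI-tools 1.1.1 and Trimmomatic 0.36 among the tools, and the build GRCm38.p6. Whether UMIs were collapsed, how reads matching several genes were counted, and the strand setting are not given in the sources used here, so intervals and floors cover counting error only. 1 count was worth 0.322 to 0.405 CPM before scaling.

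The analysis used edgeR 4.0.16 in R 4.3.3. Its filterByExpr (minimum count 10, minimum total 15) kept 10067 genes, which were scaled by TMM and tested by the robust quasi-likelihood F test (two-sided) with Benjamini-Hochberg adjustment over all of them. SEs were obtained from each log2 fold change and the square root of its F statistic. Log2 CPM used a prior count of 2. Alternatives used DESeq2 1.42.0, limma-voom (limma 3.58.1), other scalings and filters, summed tubulin counts and each library left out. Coordinates come from GENCODE for GRCm38, which matched 54165 of the 54232 identifiers.

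The members and gene lists were chosen with earlier results of these data known. Named genes are all members, other tubulin and stathmin genes, up to 4 genes per list with the smallest p, and the 5 genes most like Stmn1, Tubb5 and Tuba1b. Cell type markers and list genes named for their counts (Vash1, Actg1, Actb) are outside this rule. So are genes that overlap or share sequence with a member (Stk16, Gm11223). All of these were named after their values were seen. Replicates are numbered in the order of the samples and pair nothing. Protein sequences were not used here.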

Additional observations from a re-analysis of the deposited data

How the results depend on the processing

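No member passed the adjusted threshold under any alternative run, and the lowest adjusted p was 0.359, for Tuba1b without CTRL replicate 2. The count of genes past the threshold was 0 in edgeR, 3 with no filter and 8 by DESeq2, and 0 to 1 with each library left out (1 without CK1i replicate 2, CTRL replicate 1 or CTRL replicate 3). Unadjusted p values under 0.05 numbered 473 in edgeR, 318 by DESeq2 and 479 by limma-voom, which gave 0 genes past the adjusted threshold. With Tuba1a, Tuba1b and Tuba1c summed, the log2 fold change was 0.23, of opposite sign to Tuba1a alone. Most counts of this alpha sum come from Tuba1b and Tuba1c, whose sign it has, so it cannot show how shared reads bear on Tuba1a. With Tubb2a, Tubb2b, Tubb4b and Tubb5 summed, the log2 fold change was 0.27, of opposite sign to Tubb2a and Tubb4b. That sum is mostly Tubb5 and has its sign, so it cannot show how shared reads bear on Tubb2a or Tubb4b. With 1 library left out, the ranges were 0.53 to 1.15 for Stmn1, 0.32 to 0.76 for Tuba1b, 0.086 to 0.48 for Tubb5, -2.42 to -0.92 for Tubb6, -0.26 to -0.017 for Tubb4b and -0.61 to -0.047 for Tuba1a. Signs turned for Tuba1c (-0.050 to 0.39) and Tuba4a (-0.12 to 0.17) without CK1i replicate 1, for Tubb2a (-0.46 to 0.021) without CTRL replicate 1, and for Tubg1 (-0.19 to 0.12), whose values were 0.010 without CK1i replicate 2, 0.071 without CK1i replicate 3, 0.12 without CTRL replicate 2 and 0.046 without CTRL replicate 3. Limma-voom gave 0.012 for Tubg1. The cause was not tested. The members' median ran from -0.13 to 0.12. The medians of the gamma tubulin ring complex, prefoldin, CCT, autoregulation, plus-end and actin lists also turned sign without some library. The difference in Tuba1b share of alpha counts ran from 5.50 to 13.9 percentage points. Tubb6 and Stmn1 were not tested under the stricter filter, and Stmn1, with 9 to 47 counts per library, is limited by its few counts. No paired analysis was possible because the labels pair no CK1i library with a CTRL library.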

Other observations

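Tuba1a, which did not follow Tuba1b, was compared with the same 6536 genes in the same way after its values had been seen. Over the 6 libraries its nearest genes by root mean square difference of centred log2 CPM were Zc3h12a, Necap1, Gadd45b, Sik1 and Wsb1, the first at 0.081. Gadd45b and Sik1 are known as immediate early genes, and Zc3h12a as a ribonuclease induced by immune stimulation. Necap1 and Wsb1 are not covered by that description, and a theme common to the nearest genes was not tested. Tuba1a was highest in CTRL replicate 1 and CK1i replicate 1 (0.52 and 0.43 above its mean log2 CPM), and genes that share this come out as alike. Tubb2a was rank 23 of 6536 from Tuba1a. No test was made of this likeness.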
